A study of Homo sapiens with 6 samples.

Results

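The transcripts described here are those of 32 genes that are activated by p53 or that set the threshold for apoptosis. They were listed by name, with earlier results of these data known, and all 32 were found among 59520 named gene models. The RNA-Seq data cover SAS-Fucci cells, which derive from a human squamous carcinoma of the tongue and carry Fucci, a fluorescent reporter of the cell cycle. All cells were transfected with an siRNA. Control cells received non-targeted siRNA (Cont, 2 libraries), and IGFBP3 siRNA #1 was given to cells taken 48 h later (2 libraries) or 72 h later (2 libraries), the last with a change of medium on the way. Neither the sample labels nor the text of the study give the harvest time of the control cells or state that a group's libraries are independent cultures, so the p values measure the spread between these libraries, which may be technical.

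p53 is a transcription factor that is stabilized when DNA is damaged or growth signals are abnormal, and that switches on genes for cell-cycle arrest, DNA repair and cell death. MDM2 and its relatives hold p53 in check and are themselves p53 targets, which closes a feedback loop. Death is carried out either through the mitochondria, where BAX and the BH3-only proteins PUMA and NOXA are opposed by BCL-XL and MCL1 and the released cytochrome c assembles the APAF1 apoptosome, or through death receptors such as FAS and the TRAIL receptors. IGFBP3, the gene that was knocked down, is also known as a gene that p53 can activate.

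Knockdown of IGFBP3 was accompanied by lower levels of a minority of these genes and by a higher level of none of those tested. Of the 28 genes with an FPKM (assigned reads scaled by gene length and library total) of at least 1 in at least 2 libraries, 9 were lower than control at 48 h and 7 at 72 h, which is 32.1% and 25.0% beside 16.5% and 9.51% of all tested genes. Lower in each of these comparisons, which share the control libraries, were TNFRSF10D, a decoy receptor for TRAIL, PPM1D, a phosphatase that turns p53 signaling off, TP53I3, an oxidoreductase, ZMAT3, an RNA-binding protein, and the death receptor FAS. ZMAT3 passed the filter only through its control libraries, which in part sets the direction of its call. Among the tested members, TNFRSF10D had the largest fall, to 50.6% of the control mean at 48 h and 57.4% at 72 h. PMAIP1, which encodes NOXA, and MDM2 were lower at 72 h without passing the test at 48 h, and APAF1 was lower at 48 h alone. BAX, which acts at the mitochondria, and BCL2L1 and MCL1, which oppose it, were not called at either time.

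Calls were made on log2(FPKM + 1) with limma at an adjusted p under 0.05 (Benjamini-Hochberg, over 11214 tested genes). Because of the added 1, the change of a gene at low FPKM is understated. With 2 libraries a group, the smallest two-sided p of an exact permutation test is 0.333, so each call leans on a spread shared by limma between genes and groups. The same control libraries serve both time points. In bulk RNA, fewer cells that express a gene and less RNA per cell cannot be told apart.

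Libraries held between 17430758 and 21579470 assigned reads. The FPKM of IGFBP3 was 24.7 and 23.1 in control, then 0.261 and 0.258, and 1.52 and 3.25 in the knockdown libraries of 48 h and 72 h, so the labels and the target gene match. All 8 squamous epithelial markers had a mean FPKM over the 6 libraries of at least 1, whereas none of 6 fibroblast, 5 blood and 4 endothelial markers did, and 3 blood markers and 1 endothelial marker were at 0 in every library. By group the split was less clean. The fibroblast marker COL1A1 was at 1.25 and 1.28 FPKM in control, and the squamous marker KRT14 was at 0.554 and 0.61 at 48 h. The summed FPKM of the squamous markers was 587 to 680 in control, 315 to 329 at 48 h and 540 to 547 at 72 h, and its part in the changes below was not tested.

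None of the tested members was higher at 48 h or 72 h, beside 8.38% and 3.56% of all tested genes. Without ZMAT3, 8 of 27 members (29.6%) were lower at 48 h and 6 of 27 (22.2%) at 72 h. In either direction, the background was 24.8% and 13.1% of all tested genes. At an unadjusted p under 0.05, 12 of the 28 members differed at 48 h and 12 at 72 h. Over all 11214 tested genes, 4475 and 3320 did, so the share of members at 48 h lay near that of all genes. The median log2 fold change of the members was -0.18 at 48 h and -0.14 at 72 h, whereas that of all tested genes was -0.04 and -0.05. The signs were mixed, with 17 negative and 11 positive changes at 48 h and 20 and 8 at 72 h. Under quantile normalization, 5 members were lower and 1 higher at 48 h, and at 72 h 3 were lower and none higher. That scaling also moved the split over all genes at 48 h from 1845 lower and 940 higher to 1419 and 1375, and at 72 h from 1066 and 399 to 675 and 552. When 1 library was left out, a group was left with 1 library. Fewer members were then lower at both times, as were fewer of all tested genes. Without control replicate 1, the share of members lower at 48 h was no longer above that of all tested genes. At 72 h, the share of members lower was close to that of all tested genes without 72 h replicate 2.

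Both knockdown libraries lay below both control libraries for 15 of the 28 members at 48 h, and above them for 7, beside 38.7% and 27.3% of all tested genes. At 72 h, 14 lay below and 4 above, beside 37.2% and 21.2%.

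**Figure D1:**
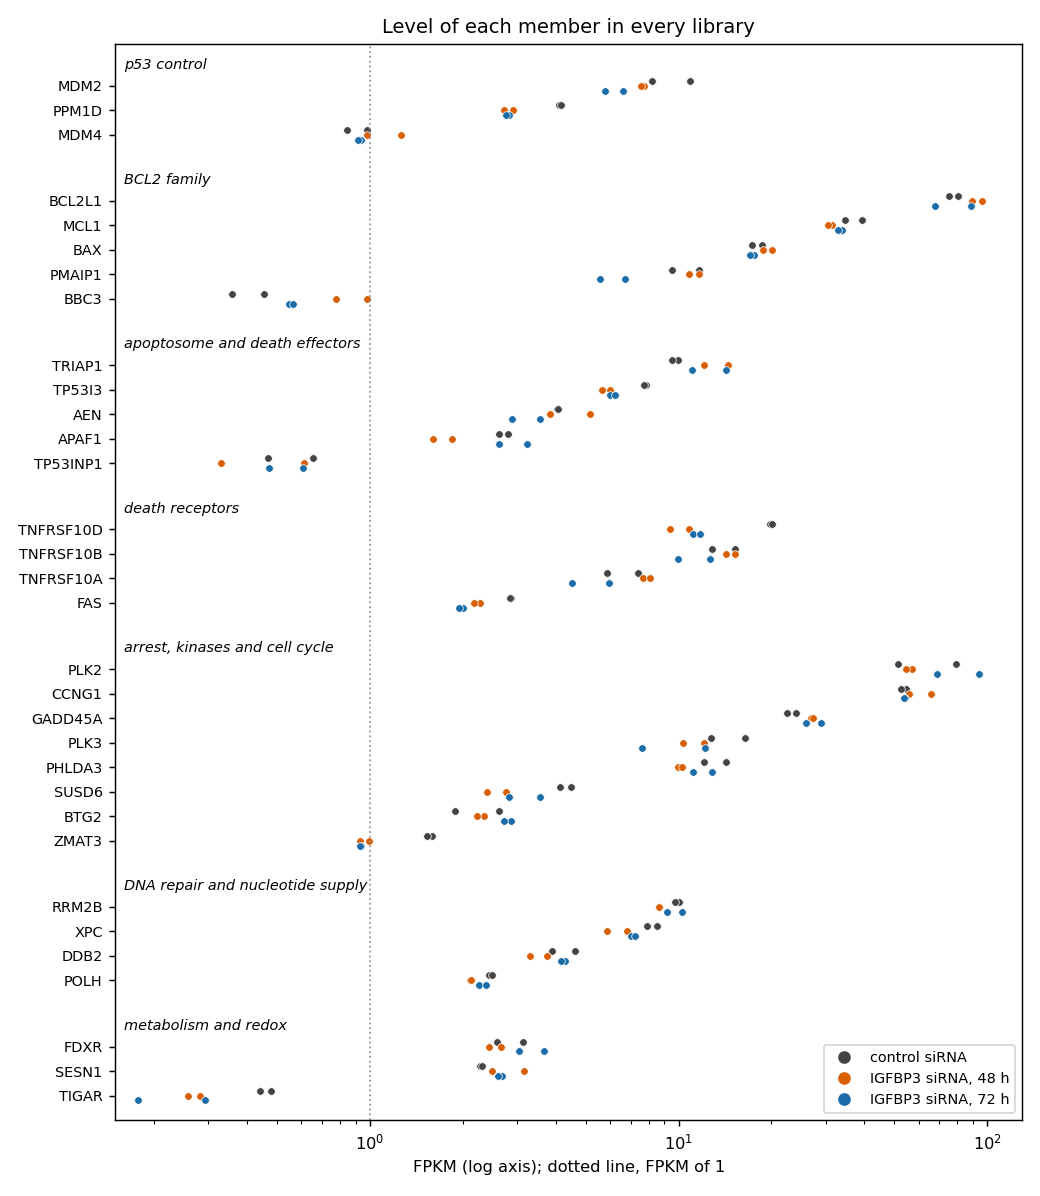
FPKM (log axis) of each of the 32 genes in every library, grouped by role; each point is 1 library, in grey for control siRNA and in orange and blue for 48 h and 72 h after IGFBP3 siRNA, and the dotted line is an FPKM of 1. Control means run from 0.406 for BBC3 to 77.8 for BCL2L1, and for most genes the spread between genes is far wider than that between groups.

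The control means of the members spanned 0.406 to 77.8 FPKM with a median of 7.21. BCL2L1, the kinase gene PLK2 and the cyclin gene CCNG1 stood at the top with means of 77.8, 65.2 and 53.6. At the bottom were 4 genes that did not pass the filter, BBC3, TIGAR, TP53INP1 and MDM4, with means of 0.406, 0.460, 0.561 and 0.913. The 2 libraries of a group differed by a median of 0.09 on the scale of log2(FPKM + 1) in control, 0.09 at 48 h and 0.13 at 72 h, and by at most 0.62, 0.36 and 0.61.

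Binding sites of p53 were looked for in the promoter sequences, because the members were collected as p53 targets. The window of RefSeq (GRCh38.p14), from 250 bases before to 50 bases after the start, was at hand for 24 of the 32 genes. Searched for were 2 copies of the p53 consensus half-site, of 10 bases each, with at most 1 base between them, at most 2 mismatches over both, and the C and G of each half-site core kept; the consensus reads the same on both strands. It was found in 4 of the 24 members (16.7%) and in 184 of 27305 genes (0.674%). A single exact half-site was found in 6 of 24 members (25.0%) and in 8.06% of all genes. The 4 stretches are shown since 2 of them, those of FAS and MDM2, belong to genes lower after knockdown and the others, those of DDB2 and AEN, to genes not called. All lie on the + strand, and capitals mark the matched bases.
MDM2, chr12:68808908-68808957: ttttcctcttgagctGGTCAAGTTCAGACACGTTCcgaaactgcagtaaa
FAS, chr10:88991294-88991343: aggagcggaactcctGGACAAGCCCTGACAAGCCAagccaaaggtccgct
DDB2, chr11:47214964-47215014: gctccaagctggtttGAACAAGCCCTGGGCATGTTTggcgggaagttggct
AEN, chr15:88621291-88621340: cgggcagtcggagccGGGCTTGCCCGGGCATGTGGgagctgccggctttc
Counted from the start that RefSeq gives, which is not the start of the gene model in the table, the match began 94 bases before for MDM2, 122 before for FAS, 34 before for AEN and 5 after for DDB2. DDB2 matched with 0 mismatches and 1 base between the half-sites, and the other 3 with 2 mismatches and none between. A match describes letters and is not a measured binding site, and the half-sites of many p53 targets lie outside this window.

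**Figure D2:**
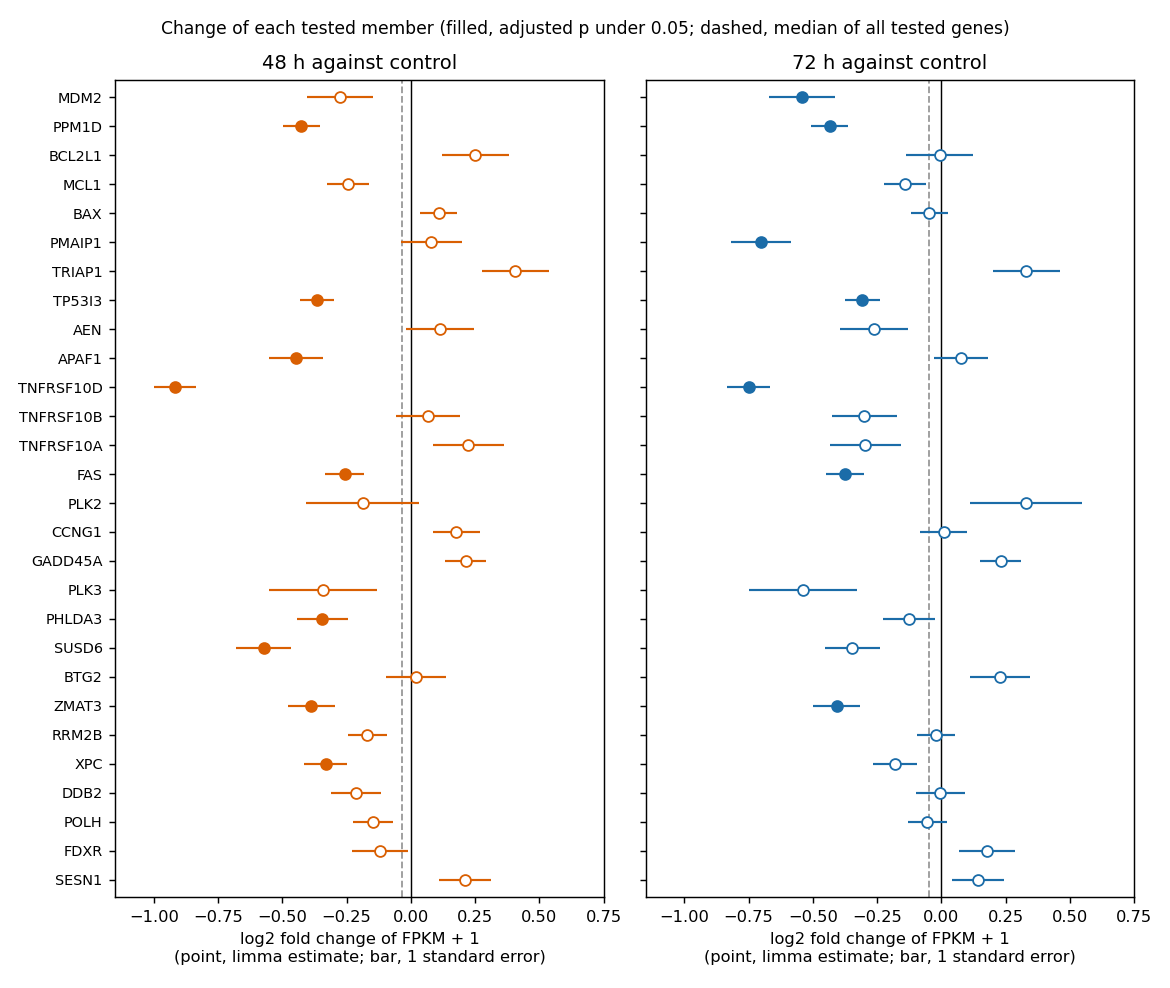
Log2 fold change of FPKM + 1 of the 28 tested genes at 48 h (left) and 72 h (right) against control, with points for the limma estimate and bars of 1 standard error; filled points have an adjusted p under 0.05 and the dashed line is the median of all tested genes. All filled points lie left of 0, with TNFRSF10D farthest left at both times (-0.92 and -0.75), and no gene is filled to the right.

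Of the 3 genes that control p53 itself, PPM1D fell at both times and MDM2 at 72 h. MDM2 is the ubiquitin ligase that marks p53 for degradation, and its FPKM was 10.9 and 8.19 in control, 7.73 and 7.57 at 48 h, and 6.60 and 5.78 at 72 h. All 4 knockdown libraries lay below both control libraries, which themselves differed more than the 2 libraries of either time point. On the log2 scale MDM2 changed by -0.27 at 48 h (standard error 0.13, adjusted p = 0.161, limma) and by -0.54 at 72 h (standard error 0.13, adjusted p = 0.0399, limma), when the mean was 64.8% of control. The 72 h call was lost without any one of control replicate 1, either 48 h library or either 72 h library, with adjusted p up to 0.168 by limma, and in 9 of 18 alternatives in all. At 48 h MDM2 was called only when control replicate 2 was left out (adjusted p = 0.0389, limma). Of the exons of MDM2, 6.91% are overlapped by genes on the opposite strand, among them CPM, and the handling of strands is not stated.

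PPM1D encodes the phosphatase WIP1, which removes phosphates from p53 and its upstream kinases. The 2 control libraries held 4.10 and 4.16 FPKM, the 48 h libraries 2.72 and 2.91, and the 72 h libraries 2.83 and 2.77. The knockdown values were close to each other and well apart from control. Log2 fold changes of -0.43 at 48 h (standard error 0.07, adjusted p = 0.00915, limma) and -0.43 at 72 h (standard error 0.07, adjusted p = 0.0149, limma) went with means at 68.2% and 67.7% of control. The 48 h call was kept under all alternatives run, with adjusted p up to 0.0483 by limma. That at 72 h was lost without either control library or either 72 h library, up to an adjusted p of 0.0771, and in 5 of 17 alternatives in all.

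MDM4, the partner of MDM2 that blocks the activation domain of p53, was too low to be tested, with 0.983 and 0.843 FPKM in control, 1.27 and 0.980 at 48 h, and 0.936 and 0.916 at 72 h, with overlap between the groups. For such genes, counts of whole reads were recovered from the FPKM and fitted without a filter by voom and limma, an alternative added after the data had been seen. The log2 fold change of MDM4 was then 0.28 at 48 h (adjusted p = 0.389) and 0.02 at 72 h (adjusted p = 0.949).

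Among the 4 tested members of the BCL2 family, NOXA alone was called. PMAIP1, which encodes this BH3-only protein and antagonist of MCL1, had an FPKM of 9.54 and 11.7 in control, 11.7 and 10.8 at 48 h, and 6.69 and 5.58 at 72 h. Its level at 48 h lay within the control range, and the 72 h libraries were below all 4 others. PMAIP1 changed by 0.08 on the log2 scale at 48 h (standard error 0.12, adjusted p = 0.651, limma) and -0.70 at 72 h (standard error 0.12, adjusted p = 0.0151, limma), when the mean was 57.8% of control. Directly compared, 72 h was lower than 48 h by -0.78 (standard error 0.12, adjusted p = 0.0295, limma). The fall against control was lost when replicate 2 of control or of 72 h was left out (adjusted p up to 0.0725), and that between the times without either 48 h library or 72 h replicate 2 (adjusted p up to 0.144). Over all 18 alternatives these calls were lost in 3 and 6.

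BAX, the protein that permeabilizes the mitochondrial outer membrane, measured 18.6 and 17.4 FPKM in control, 18.8 and 20.1 at 48 h, and 17.6 and 17.1 at 72 h. These values lay close together, at 108% and 96.5% of the control mean (adjusted p = 0.308 and 0.705, limma). BCL2L1 encodes BCL-XL, which holds BAX in check, and was the most abundant member, with 80.6 and 75.0 FPKM in control, 89.2 and 96.3 at 48 h, and 88.6 and 67.5 at 72 h. Both 48 h libraries were above control, while the 72 h libraries lay on either side of it, and neither time passed the test (adjusted p = 0.201 and 0.979, limma). On the opposite strand, the noncoding gene ABALON overlaps 43.0% of the exon sequence of BCL2L1.

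MCL1, a short-lived survival protein, had an FPKM of 39.4 and 34.5 in control, 31.5 and 30.5 at 48 h, and 33.8 and 32.8 at 72 h. All knockdown libraries lay below both controls, at 83.9% and 90.1% of the mean, without a call (adjusted p = 0.0709 and 0.296, limma). At 48 h MCL1 was called lower by voom on the recovered reads with and without the filter and when control replicate 2 was left out, with adjusted p down to 0.0442.

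BBC3 encodes PUMA, the BH3-only protein that binds all the survival members of the family, and it lay under the filter. Its recovered reads numbered 30 and 21 in control, 58 and 53 at 48 h, and 38 and 41 at 72 h, or 0.453 and 0.359, 0.981 and 0.776, and 0.549 and 0.566 FPKM. All knockdown libraries were above both controls, and the 48 h libraries were the highest, at 216% of the control mean. In the fit of reads added after the data had been seen, the log2 fold change was 1.08 at 48 h (standard error 0.30, adjusted p = 0.0326, voom and limma) and 0.45 at 72 h (adjusted p = 0.512). That fit called 3.82% of 27780 genes higher at 48 h. The planned limma fit of log2(FPKM + 1) without a filter called 0 of the 32 members higher at 48 h, beside 423 of 27780 genes. The transcription factors ATF4 and CHOP are known to act on BBC3 and PMAIP1, and their levels are given further on.

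Among the death receptors, TNFRSF10D and FAS fell. TNFRSF10D encodes DcR2, a receptor that binds TRAIL but carries a truncated death domain. Its FPKM was 19.8 and 20.1 in control, 9.38 and 10.8 at 48 h, and 11.2 and 11.8 at 72 h. This gap to control was far wider than the spread within any group. Its log2 fold change was -0.92 at 48 h (standard error 0.08, adjusted p = 0.00166, limma) and -0.75 at 72 h (standard error 0.08, adjusted p = 0.00491, limma). Both calls were kept under all alternatives run, with adjusted p up to 0.0172 and 0.0348.

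FAS, the receptor of FAS ligand, was lower at both times, with 2.86 and 2.85 FPKM in control, 2.27 and 2.18 at 48 h, and 2.00 and 1.94 at 72 h. Its groups were ordered without overlap. For FAS it was -0.26 (standard error 0.08, adjusted p = 0.0486, limma) and -0.37 (standard error 0.08, adjusted p = 0.0257, limma), with means at 77.9% and 69.1% of control. At 48 h the call was lost without any one of the 6 libraries (adjusted p up to 0.173), and at 72 h without either control or either 72 h library (adjusted p up to 0.116). Of the 17 alternatives, 12 and 6 ended these calls. The model of FAS in the table is 1.32 times as long as its exons in GENCODE v29, and 8.94% of these exons are overlapped on the opposite strand by ACTA2.

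TNFRSF10A and TNFRSF10B encode DR4 and DR5, the TRAIL receptors that signal death. DR5 mRNA measured 15.3 and 12.9 FPKM in control, 14.2 and 15.2 at 48 h, and 12.6 and 9.96 at 72 h. DR4 mRNA measured 7.40 and 5.85, 7.66 and 8.07, and 5.94 and 4.51. Both were lowest at 72 h, at 80.1% and 78.8% of the control mean, but neither passed the test against control at 48 h (adjusted p = 0.732 and 0.273, limma) or at 72 h (adjusted p = 0.168 and 0.209, limma). Between 48 h and 72 h, DR4 mRNA changed by -0.52 (adjusted p = 0.0811, limma), which voom on recovered reads called lower (adjusted p = 0.0305). Thus the decoy receptor passed the test in both comparisons and the signaling receptors in neither, a difference between genes that was not itself tested. Overlap on the opposite strand covers 16.6% of the exons of TNFRSF10A.

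Downstream of the mitochondria, APAF1 moved at 48 h and lay around the control level at 72 h. APAF1, the scaffold of the caspase-9 apoptosome, had an FPKM of 2.63 and 2.81 in control, 1.85 and 1.60 at 48 h, and 2.63 and 3.23 at 72 h. Both libraries of 48 h were below all 4 others. APAF1 changed by -0.45 on the log2 scale at 48 h (standard error 0.10, adjusted p = 0.0243, limma) and 0.08 at 72 h (adjusted p = 0.670, limma), and 72 h exceeded 48 h by 0.52 (standard error 0.10, adjusted p = 0.0471, limma). The 48 h call was lost without either control or either 48 h library (adjusted p up to 0.119), and that between the times without any one of the 6 libraries (adjusted p up to 0.212). In all, 5 and 12 of 17 alternatives lost them. ANKS1B overlaps 9.48% of the exons of APAF1 on the opposite strand.

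TP53I3, also known as PIG3, encodes a quinone oxidoreductase that forms reactive oxygen species. It measured 7.84 and 7.74 FPKM in control, 5.67 and 5.99 at 48 h, and 5.995 and 6.21 at 72 h. All knockdown libraries lay below both controls. TP53I3 changed by -0.36 on the log2 scale at 48 h (standard error 0.07, adjusted p = 0.0116, limma) and by -0.31 at 72 h (standard error 0.07, adjusted p = 0.0316, limma), with means at 74.8% and 78.3% of control. At 48 h it was no longer called when replicate 1 of either group was left out (adjusted p up to 0.0603), and at 72 h without any one of the 6 libraries (adjusted p up to 0.137). Of 18 alternatives in all, 3 and 11 ended the calls.

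The other death effectors were not called. TRIAP1, a mitochondrial protein that restrains apoptosome activation, measured 9.98 and 9.55 FPKM in control, 12.1 and 14.5 at 48 h, and 11.0 and 14.2 at 72 h. All knockdown libraries were above both controls, at 136% and 129% of the mean, and the adjusted p was 0.0640 and 0.149 by limma. TRIAP1 was called higher at 48 h in 6 alternatives, among them those without either 72 h library, with adjusted p down to 0.0387. AEN, an exonuclease that degrades DNA in dying cells, was at 4.05 and 4.06, then 3.83 and 5.18, then 3.56 and 2.89. Its 48 h libraries lay on either side of control and its 72 h libraries below (adjusted p = 0.568 and 0.244, limma). TP53INP1, a nuclear p53 cofactor with a role in autophagy, was under the filter at 0.331 to 0.655 FPKM, the groups overlapped, and the fit of recovered reads gave adjusted p of 0.5995 and 0.914.

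**Figure D3:**
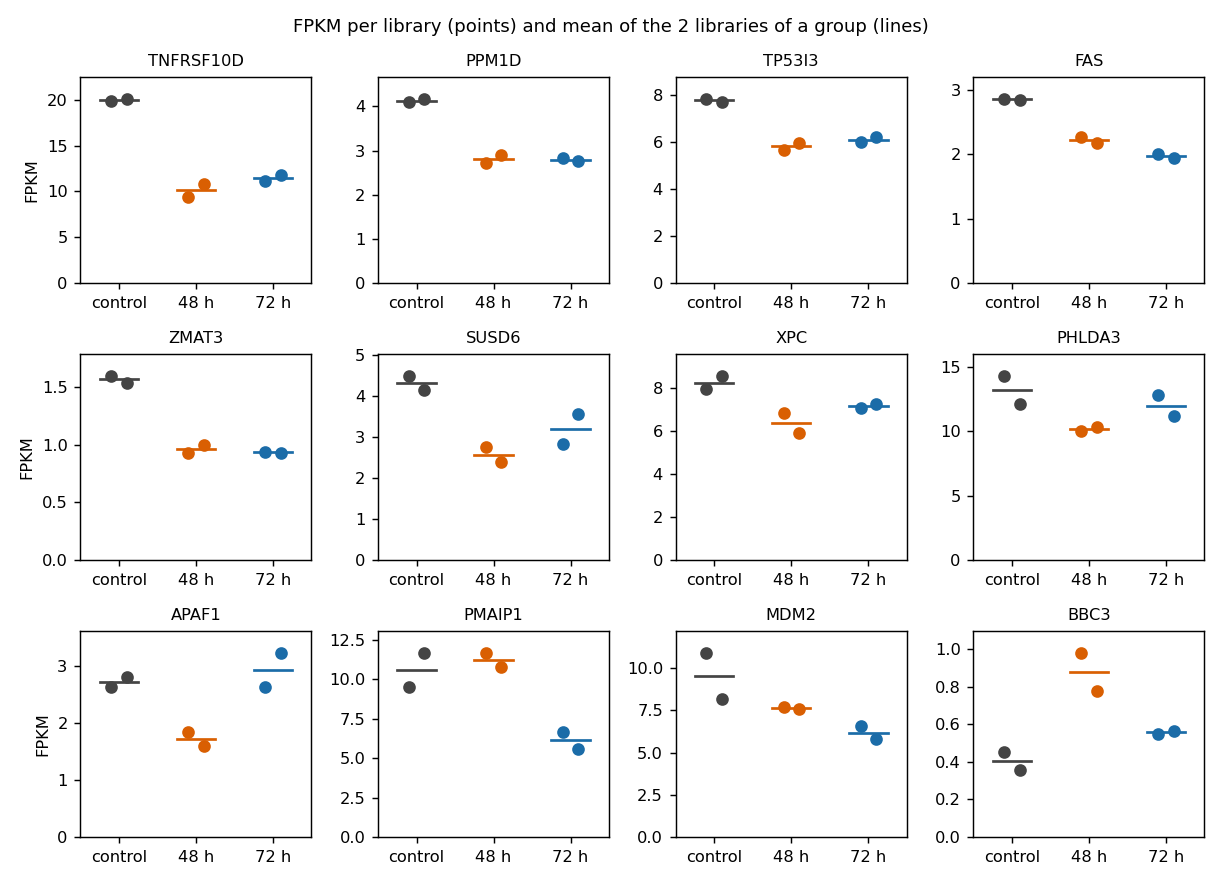
FPKM of the 11 members called lower at 48 h or 72 h and of BBC3, with points for the libraries and lines for the mean of the 2 libraries of a group; each panel has its own axis from 0. PPM1D, TP53I3, ZMAT3 and TNFRSF10D are low at both times, APAF1 is low at 48 h only, PMAIP1 is low at 72 h only, and BBC3 is highest at 48 h.

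Of the 8 genes that act on the cell cycle and its kinases, 3 were lower at 48 h and 1 at 72 h. Of all tested genes, 16.5% and 9.51% were. ZMAT3 was the 1 at 72 h and among the 3 at 48 h, and it passed the filter only through its control libraries. ZMAT3, which encodes an RNA-binding protein that regulates splicing and stability of mRNAs, had an FPKM of 1.59 and 1.54 in control, 0.929 and 0.996 at 48 h, and 0.936 and 0.932 at 72 h. For ZMAT3 the log2 fold change was -0.39 at 48 h (standard error 0.09, adjusted p = 0.0250, limma) and -0.41 at 72 h (standard error 0.09, adjusted p = 0.0341, limma), with means at 61.4% and 59.6% of control. Because of the filter, ZMAT3 could not be tested without either control library. Leaving out either 48 h library ended the call at 48 h (adjusted p up to 0.0927), and leaving out any one of the 4 knockdown libraries ended that at 72 h (adjusted p up to 0.129). Over 15 alternatives, the calls were lost in 4 and 8.

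SUSD6, a membrane protein with growth suppressor activity, measured 4.49 and 4.14 FPKM in control, 2.75 and 2.40 at 48 h, and 2.83 and 3.56 at 72 h. It was low in all knockdown libraries, most so at 48 h. SUSD6 changed by -0.57 at 48 h (standard error 0.11, adjusted p = 0.0125, limma), to 59.7% of the control mean, and by -0.35 at 72 h (standard error 0.11, adjusted p = 0.0845, limma). The 48 h call needed control replicate 1 and the second 48 h library (adjusted p up to 0.0757 without one of them) and was lost in 3 of 17 alternatives in all, and voom on recovered reads also called 72 h lower (adjusted p = 0.0422). PHLDA3, an inhibitor of AKT, was at 14.3 and 12.1 in control, 9.99 and 10.3 at 48 h, and 12.8 and 11.2 at 72 h. PHLDA3 changed by -0.34 on the log2 scale at 48 h (standard error 0.10, adjusted p = 0.0478, limma) and -0.13 at 72 h (adjusted p = 0.448, limma), and the 48 h call was lost without any 1 library other than control replicate 2 (adjusted p up to 0.185), and in 12 of 18 alternatives in all. A noncoding gene on the same strand covers 19.1% of the exons of PHLDA3.

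The stress sensor GADD45A, which acts on the G2/M kinase and on p38, was at 24.0 and 22.4 FPKM in control, 26.8 and 27.3 at 48 h, and 25.9 and 28.96 at 72 h. All knockdown libraries lay above both controls, without a call (adjusted p = 0.0933 and 0.109, limma). PLK3, a stress-responsive polo-like kinase, was at 16.5 and 12.7, then 10.4 and 12.1, then 12.2 and 7.61 FPKM. It was below control in every knockdown library, but the libraries of a group differed widely (adjusted p = 0.271 and 0.145, limma). The remaining polo-like kinase, PLK2, varied most between replicates, with 51.2 and 79.3 in control, 57.0 and 54.7 at 48 h, and 68.7 and 93.8 at 72 h (adjusted p = 0.559 and 0.369, limma). CCNG1, a cyclin that recruits phosphatase to MDM2, ran from 52.6 to 65.9 FPKM over all libraries, and BTG2, an antiproliferative transcription cofactor, from 1.89 to 2.87, and neither was called.

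In DNA repair, XPC was the gene that changed. XPC, the damage sensor of global nucleotide excision repair, measured 7.93 and 8.53 FPKM in control, 6.81 and 5.87 at 48 h, and 7.03 and 7.24 at 72 h. All knockdown libraries lay below both controls. XPC changed by -0.33 on the log2 scale at 48 h (standard error 0.08, adjusted p = 0.0326, limma) and -0.18 at 72 h (adjusted p = 0.210, limma), with means at 77.1% and 86.7% of control. The call was lost without any 1 library other than 48 h replicate 1 (adjusted p up to 0.154), and in 10 of 18 alternatives in all, among them no filter, quantile normalization and only the groups compared. Genes on the opposite strand, LSM3 among them, cover 30.4% of the exons of XPC.

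The other repair genes stayed without a call, although all 4 of the group had negative changes at both times. The median log2 fold change of the 4 was -0.191 at 48 h and -0.0375 at 72 h. Over all tested genes it was -0.0351 and -0.0489, so the median of the group was not below it at 72 h. DDB2, which binds damaged DNA with XPC, was at 3.88 and 4.63 FPKM in control, 3.76 and 3.30 at 48 h, and 4.28 and 4.17 at 72 h (adjusted p = 0.151 and 0.984, limma). RRM2B, the p53-inducible subunit of ribonucleotide reductase, was at 10.04 and 9.71, then 8.67 and 8.67, then 9.19 and 10.3 (adjusted p = 0.141 and 0.889, limma). POLH, a polymerase that copies past lesions, was at 2.42 and 2.48, then 2.11 and 2.13, then 2.26 and 2.39 (unadjusted p = 0.0968 and 0.496, limma, not past the threshold after adjustment). Thus all 3 were at their lowest at 48 h, at 82.9%, 87.8% and 86.3% of the control mean. The model of POLH is 2.73 times as long as its exons in GENCODE v29, so that its FPKM is low for its reads.

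Of the metabolic targets, none was called by the main test. SESN1, a sestrin that restrains mTORC1, measured 2.28 and 2.31 FPKM in control, 3.16 and 2.49 at 48 h, and 2.68 and 2.60 at 72 h. All knockdown libraries of SESN1 were above both controls (adjusted p = 0.170 and 0.396, limma). FDXR, a mitochondrial reductase of steroid and iron-sulfur metabolism, was at 2.58 and 3.13, then 2.65 and 2.43, then 3.05 and 3.66, and the groups overlapped with control at both times. TIGAR, a phosphatase that slows glycolysis, lay under the filter with 82 and 79 reads in control, 43 and 54 at 48 h, and 57 and 36 at 72 h. All 4 knockdown libraries were lower, at 58.6% and 51.1% of the control mean FPKM. Its log2 fold change in the fit of reads was -0.76 (adjusted p = 0.0891, voom and limma) at 48 h. At 72 h it was -1.01 (standard error 0.27, adjusted p = 0.0394, voom and limma), a time at which that fit called 4.81% of all genes lower. The planned limma fit of log2(FPKM + 1) without a filter did not call TIGAR at either time. The model of TIGAR is 2.35 times as long as its GENCODE v29 exons, of which 42.6% are shared with genes on the same strand.

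Between 48 h and 72 h, 1 of the 28 tested members was lower (PMAIP1) and 1 higher (APAF1), beside 1.86% and 2.19% of all tested genes (4.06% in either direction). At an unadjusted p under 0.05, 6 of the 28 members differed, beside 2838 of 11214 tested genes. The share of members was thus not above that of all genes. The median log2 change of the members between the times was 0.00, and 9 lay wholly below and 13 wholly above their 48 h values at 72 h, beside 30.7% and 28.2% of all genes. Both calls were lost in some leave-one-out fits, as given with each gene. Without either 48 h library or 72 h replicate 2, nearly all calls over all tested genes were lost too, so the loss in these fits is not particular to these members. The call of APAF1 was also lost without either control library or 72 h replicate 1, where a part of the calls over all tested genes was kept.

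Of 48 further p53 targets, 34 could be tested, and 9 were lower and 3 higher at 48 h, which is 26.5% and 8.82% beside 16.5% and 8.38% of all tested genes. At 72 h, 6 were lower and 4 higher (17.6% and 11.8%, beside 9.51% and 3.56%). The median log2 fold changes were -0.18 and -0.15. Without control replicate 1 or without either 48 h library the 9 became 5, and the 6 at 72 h ranged from 1 to 4 over the libraries left out. Those lower at 48 h included DRAM1, a lysosomal membrane protein that promotes autophagy, with 4.91 and 4.95 FPKM in control, 2.15 and 1.81 at 48 h, and 1.67 and 1.88 at 72 h. Its log2 fold change was -0.996 at 48 h (adjusted p = 0.00168, limma) and -1.09 at 72 h (adjusted p = 0.00223, limma). SFN, the 14-3-3 sigma protein that holds cells in G2, was at 334 and 287, then 204 and 176, then 249 and 257, with a log2 fold change of -0.70 at 48 h (adjusted p = 0.00709, limma). In the other direction, the sestrin SESN2 rose from 3.45 and 3.55 to 5.44 and 5.13 at 48 h (0.48, adjusted p = 0.0102, limma) and was at 2.48 and 2.92 at 72 h. STEAP3, a metal reductase that is also a p53 target, rose at both times (0.39 and 0.41, adjusted p = 0.0102 and 0.0144, limma).

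Of 22 genes of the p53 family and its regulators, 3 were lower at 48 h and none higher, whereas 1 was lower and 2 higher, among them CDKN2A, at 72 h. The 3 were TP73, a relative of p53 (2.54 and 3.03 FPKM in control, 1.07 and 1.29 at 48 h), PPP1R13L, which encodes the p53 inhibitor iASPP (11.8 and 11.9, then 7.14 and 7.74), and HIPK2, a kinase that phosphorylates p53 (2.62 and 2.64, then 2.02 and 1.47). Their log2 fold changes at 48 h were -0.79, -0.61 and -0.41 (adjusted p = 0.0115, 0.00295 and 0.0405, limma). HIPK2 was also the gene lower at 72 h (-0.48, adjusted p = 0.0397, limma). The shares of lower genes, 13.6% at 48 h and 4.55% at 72 h, are below those of all tested genes. The 2 higher at 72 h are 9.09%, beside 3.56% of all tested genes.

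Among 10 tested genes of 14 in the remaining BCL2 family, BCL2L2 alone was called, lower at both times. That is 10% of the tested list at each time, beside 16.5% and 9.51% of all tested genes. BCL2L2, which encodes the survival protein BCL-W, was at 5.35 and 5.12 FPKM in control, 3.51 and 3.46 at 48 h, and 2.70 and 2.80 at 72 h, without overlap. Its log2 fold change was -0.47 (adjusted p = 0.00586, limma) and -0.73 (adjusted p = 0.00325, limma). Of 27 death receptor and caspase genes, 19 were tested, and at 48 h 3 were lower, among them the adaptor TRADD and CASP9, and 2 were higher, the mitochondrial protease HTRA2 and the nuclease inhibitor DFFA. These are 15.8% and 10.5%, near the 16.5% and 8.38% of all tested genes. CASP9, the caspase that the APAF1 apoptosome activates, was at 1.75 and 1.92 in control, 0.969 and 0.950 at 48 h, and 1.39 and 1.37 at 72 h. CASP9 changed by -0.53 at 48 h (adjusted p = 0.00881, limma) and -0.25 at 72 h (adjusted p = 0.117, limma). TRADD was the 1 gene of this list lower at 72 h, which is 5.26% beside 9.51% of all tested genes.

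In a list of the stress factors ATF4 and CHOP themselves and their targets, 8 of 10 tested genes were higher at 48 h (80.0%, beside 8.38% of all genes) and 0 of 10 at 72 h, with median log2 fold changes of 0.96 and 0.14. Among the 8 is ATF3, at 0.489 and 0.44 FPKM in control and 1.77 and 1.31 at 48 h. It passed the filter only through knockdown libraries, which in part sets the direction of its call. ATF4 itself had an FPKM of 65.4 and 80.0 in control, 203 and 161 at 48 h, and 83.1 and 79.7 at 72 h. Its 48 h libraries lay above all 4 others. DDIT3, which encodes CHOP, was at 4.38 and 3.56, then 7.599 and 6.01, then 5.08 and 4.82, with a log2 fold change of 0.65 at 48 h (adjusted p = 0.0128, limma). Leaving out control replicate 1, control replicate 2 or 48 h replicate 1 brought the 8 to 4, 3 or 5. At an unadjusted p under 0.05, 1 of the 10 tested genes of this list differed at 72 h, beside 3320 of 11214 tested genes. The part of these factors in the level of BBC3 or of any other member was not tested.

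**Figure D4:**
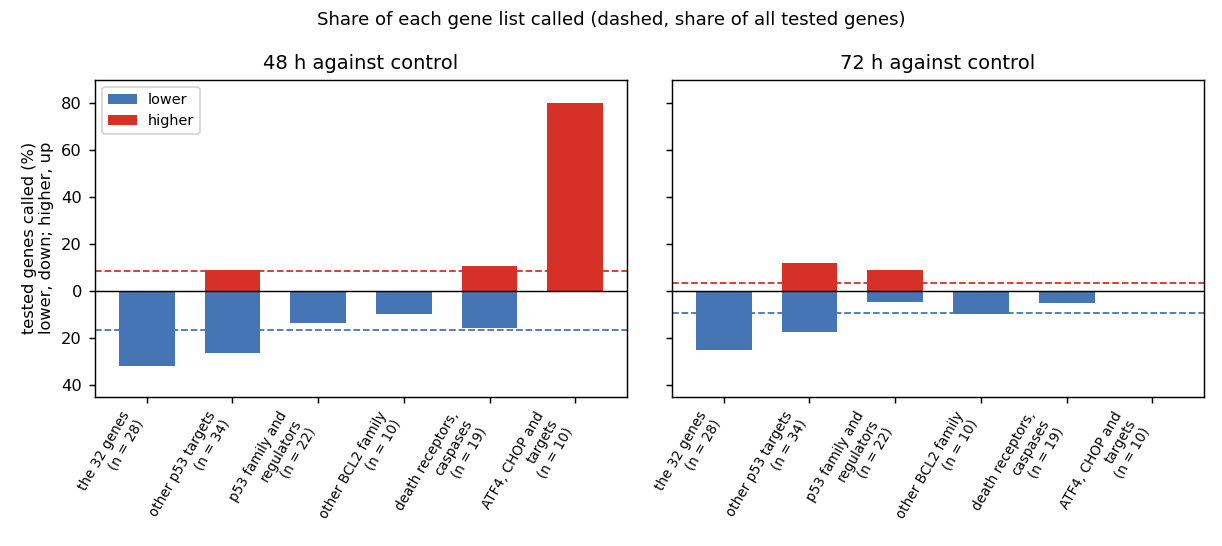
Share of the tested genes of each list called lower (bars down, blue) and higher (bars up, red) at 48 h (left) and 72 h (right) against control; dashed lines are the shares of all tested genes, and n is the number tested. The members show 32.1% and 25.0% lower and none higher, and the list of ATF4, CHOP and their targets 80.0% higher at 48 h and none at 72 h. These shares include ZMAT3 and ATF3, which passed the filter only through libraries in which they were high.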

How the data were processed

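RNA was sequenced from 6 libraries in 3 groups of 2. Alignment by the authors used HISAT2 2.0.1, and the submitters' processing notes also name HTSeq 0.6.1 and GRCh38 without a role. The annotation release and the handling of strands are not given in the sources used here. The deposited values were FPKM for 66351 gene models, with the length of each model in bases as the authors gave it, and 6831 models without a name were left out. FPKM times length and library total gave whole reads within 0.1 read for 100% of the low values checked, which gave the assigned reads. A gene was tested if 2 or more libraries reached an FPKM of 1. Log2 of FPKM with a pseudocount of 1 went into a limma (3.58.1, R 4.3.3) fit of all libraries with 1 mean per group and a variance trend, and the threshold was an adjusted p (Benjamini-Hochberg) of 0.05.

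The members and the gene lists were chosen with earlier results of these data known. All members are accounted for, those called with their values in all libraries; from the other lists, the called genes with the smallest p and the defining genes were to be named, and those named are a part of these, since some are not reported here. Promoter sequences came from RefSeq (GRCh38.p14), and exon overlaps from GENCODE v29. The alternatives tried were other pseudocounts (0.1 and 5), another filter (none, or an FPKM of 5), TPM, quantile normalization, voom on recovered reads, only the groups compared, a replicate block, no variance trend, unnamed models included and each library left out in turn. A group then left with 1 library was taken to vary like the others. The fit of recovered reads by voom without a filter was added after the data had been seen. Python 3.11.15, numpy 2.4.6, pandas 2.3.3 and matplotlib 3.10.9 were used.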

Additional observations from a re-analysis of the deposited data

Results flagged for a closer look

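The change of 2 members differed between the time points by the direct test of 72 h against 48 h in limma. APAF1 was 0.52 higher on the log2 scale at 72 h than at 48 h (adjusted p = 0.0471), and PMAIP1 was lower, by -0.78 (adjusted p = 0.0295). The control libraries cancel in the size of both changes, but they enter the spread that limma shares between groups, and so the adjusted p. With only the groups compared, the call of APAF1 was lost and that of PMAIP1 was kept.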

How the results depend on the processing

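No call of a member reversed in any alternative. The 9 members lower at 48 h were 3 without a filter, 4 at an FPKM of at least 5, where 17 members were tested, and 5 under quantile normalization, and 2 to 7 with 1 library left out. The 0 higher at 48 h became 1 at an FPKM of at least 5, under quantile normalization, with only the groups compared, with the replicate block and by voom without a filter, and 0 to 1 with 1 library left out. The 7 lower at 72 h were 1 without a filter, 4 at an FPKM of at least 5, 3 under quantile normalization, 4 with only the groups compared and 1 to 4 with 1 library left out, while the count higher stayed at 0. Between the times, the 1 lower became 0 without a filter, with the replicate block and with unnamed models, 2 by voom with or without a filter, and 0 to 1 with 1 library left out. The 1 higher became 0 with a pseudocount of 5, without a filter, at an FPKM of at least 5, with only the groups compared, with the replicate block, without a variance trend, with unnamed models and with any 1 library left out. Without a filter, 27780 genes were tested and 1009 were lower and 423 higher at 48 h, 274 and 97 at 72 h, and 8 and 10 between the times. At an FPKM of at least 5, 6557 genes were tested. Of these, 1224 were lower and 758 higher at 48 h, and 680 and 285 at 72 h. With only the groups compared, 1599 of 11214 genes were lower and 783 higher at 48 h, and 773 and 274 at 72 h. With the replicate block these counts were 1669 and 848 at 48 h, and 849 and 314 at 72 h.

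Deviations from the group means of libraries with the same replicate number correlated at -0.00 between control and 48 h, 0.16 between control and 72 h and -0.12 between 48 h and 72 h. These weak correlations show no strong shared effect of the number. They cannot settle whether libraries with the same number were handled together, which the labels do not state. With the number as a block, 7 members were lower and 1 higher at 48 h, 6 were lower at 72 h and none differed between the times, where 73 genes were lower and 104 higher among all tested. Every call of a member other than those of TNFRSF10D against control and PPM1D at 48 h was lost without at least 1 library, and FPKM near 1 limit the test of BBC3, TIGAR, TP53INP1 and MDM4.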
